A study of Mus musculus with 4 samples.

Results

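Genes characteristic of embryonic macrophages were read on 4 two-colour arrays of the mouse embryo, each hybridised with metanephric mesenchyme (MM) and with intermediate mesoderm (IM). The members were fixed by name, and every probe carrying one of 10 gene symbols in the platform annotation was taken. Of the 10, 9 had a probe, 1 each, out of 14991 gene symbols in the whole table, and Csf1r was not analysed here. These 9 were Ptprc, Laptm5, Mrc1, C1qa, C1qb, Cd68, Spi1, Fcer1g and Coro1a.

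MM is the mesenchyme that condenses around the ureteric bud and forms the nephrons, and IM is the mesoderm from which the urogenital organs arise. Both were labelled 10.5 days post coitum (dpc), dissected from primary tissue of both sexes, with RNA amplified before labelling. The sources used here give no strain, genotype, number of embryos or pooling. On arrays 1 and 2 MM was channel 1, and on arrays 3 and 4 it was channel 2, with the labels there crossing the nouns of the tissue names, read here as the same pair of tissues. A value is a log2 ratio, and a positive one means higher in MM. The labels make that direction likely without stating the dye of each channel, and all signs would turn together if it were the other way.

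Macrophages of the early embryo come first from the yolk sac and then from the fetal liver, and they seed most organs, the kidney and gonad among them, where they clear dying cells. Their development rests on the transcription factor PU.1, encoded by Spi1, and on the receptor encoded by Csf1r, which answers the ligands CSF1 and IL-34. In tissue that is otherwise free of blood cells, the genes read here are made mostly by such cells. Ptprc, Coro1a, Laptm5 and Fcer1g, among others, are shared by other leukocytes, and no member is taken here as restricted to macrophages.

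PU.1 binds purine-rich sites with the core GAGGAA. Promoter windows are shown for the 3 genes that lay closest together in the arrays, a choice made on their ratios and not on the motif. Whether PU.1 acts on these genes was not tested. The windows come from RefSeq on GRCm38.p6, run from 250 bases before to 50 bases after the annotated start, and read 5′ to 3′ on the gene's strand, with GAGGAA or its reverse complement TTCCTC in capitals. Mrc1 lies at chr2:14229164-14229463 (plus strand), Laptm5 at chr4:130913066-130913365 (plus strand) and Cd68 at chr11:69666121-69666420 (minus strand).
Mrc1: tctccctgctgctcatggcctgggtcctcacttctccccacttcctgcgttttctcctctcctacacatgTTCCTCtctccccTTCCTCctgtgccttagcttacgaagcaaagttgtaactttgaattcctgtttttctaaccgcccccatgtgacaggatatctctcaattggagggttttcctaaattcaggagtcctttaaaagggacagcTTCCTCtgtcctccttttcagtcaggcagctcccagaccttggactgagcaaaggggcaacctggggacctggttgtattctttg
Laptm5: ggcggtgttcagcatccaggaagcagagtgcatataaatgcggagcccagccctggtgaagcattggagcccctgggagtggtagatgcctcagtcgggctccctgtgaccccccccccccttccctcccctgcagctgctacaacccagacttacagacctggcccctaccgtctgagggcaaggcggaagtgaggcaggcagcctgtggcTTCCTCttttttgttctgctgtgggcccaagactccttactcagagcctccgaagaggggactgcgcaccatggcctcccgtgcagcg
Cd68: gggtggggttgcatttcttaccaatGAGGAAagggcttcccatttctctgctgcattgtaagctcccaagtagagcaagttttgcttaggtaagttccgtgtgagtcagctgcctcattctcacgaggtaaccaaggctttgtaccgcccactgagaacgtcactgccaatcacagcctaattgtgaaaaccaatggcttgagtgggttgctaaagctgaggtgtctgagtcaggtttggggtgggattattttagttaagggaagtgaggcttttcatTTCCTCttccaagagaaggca
The Mrc1 window held 3 matches, which began 180, 167 and 35 bases before the start. In the Laptm5 window there was 1, 38 bases before the start, and in the Cd68 window there were 2, 225 bases before and 29 bases after it. Of the 7 members with a window in the table, 5 held a match, since Ptprc and C1qb each had 1 as well, while the windows of Fcer1g and Coro1a had none. The 7 members had 9 windows, and a further window of Ptprc held no match. Such a short word is common: 28.3% of all 32851 windows, counted by window and not by gene, held it on one strand or the other. A match describes letters and not a bound site.

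The arrays held 15812 to 21599 values each out of 22702 probes, and 14184 probes had a value on all 4. The lowest value, -6.64, stands for a ratio of 0.01 on the log2 scale and was read as a floor, not a measured fold. It was reached 16 and 8 times on the arrays with MM as channel 1, against 1672 and 1805 times on the others. The ratios depended on the orientation: over the 13191 probes above the floor (points that are genes, not replicates) Pearson's r was 0.84 and 0.91 within an orientation and 0.11 to 0.27 between them. With the probes at the floor included, r between orientations was -0.35 to -0.26. The table holds no intensities, so the level of a gene in either tissue is unknown and whether a spot lay above background cannot be read. The presence of macrophages in either dissection could therefore not be checked against their markers, and a ratio can come from fewer cells or from less RNA per cell, which cannot be told apart in bulk tissue.

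The 9 genes did not behave as 1 group. Mrc1, Laptm5 and Cd68 were lower in MM on every array, with means of 1.44-fold to 1.46-fold. C1qa was lower by a smaller amount that came mainly from arrays 1 and 2, and Coro1a was slightly higher. The other genes lacked values or stood at the floor: Spi1 was far above 0 on the 2 arrays that measured it, C1qb was near 0 there, Ptprc was measured on 3 arrays and Fcer1g changed sign with the orientation.

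Each probe with 4 values was fitted with limma, with a term for orientation, and a call means a Benjamini-Hochberg adjusted p under 0.05 over all 14184 probes. Calls are common in this fit, since 38.1% of all tested probes were called lower in MM and 23.8% higher. Of the 6 members tested, 4 were called lower, 1 higher and 1 was not called. Without the orientation term the residual also holds the difference between orientations, and a probe called in both fits is the firmer case. In both fits 14.4% of all probes were lower and 13.6% higher, against 3 and 0 of the 6 members. Coro1a, the member above 0, had an unadjusted p of 0.0687 and an adjusted p of 0.158 in limma without the term. Of the 5 tested members above the floor, 4 were below 0 on all 4 arrays, as were 30.0% of all such probes. The median of these 5 was -0.53, against -0.05 over all probes above the floor. With so few members these counts are a description, and no test was made of the list.

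**Figure D1:**
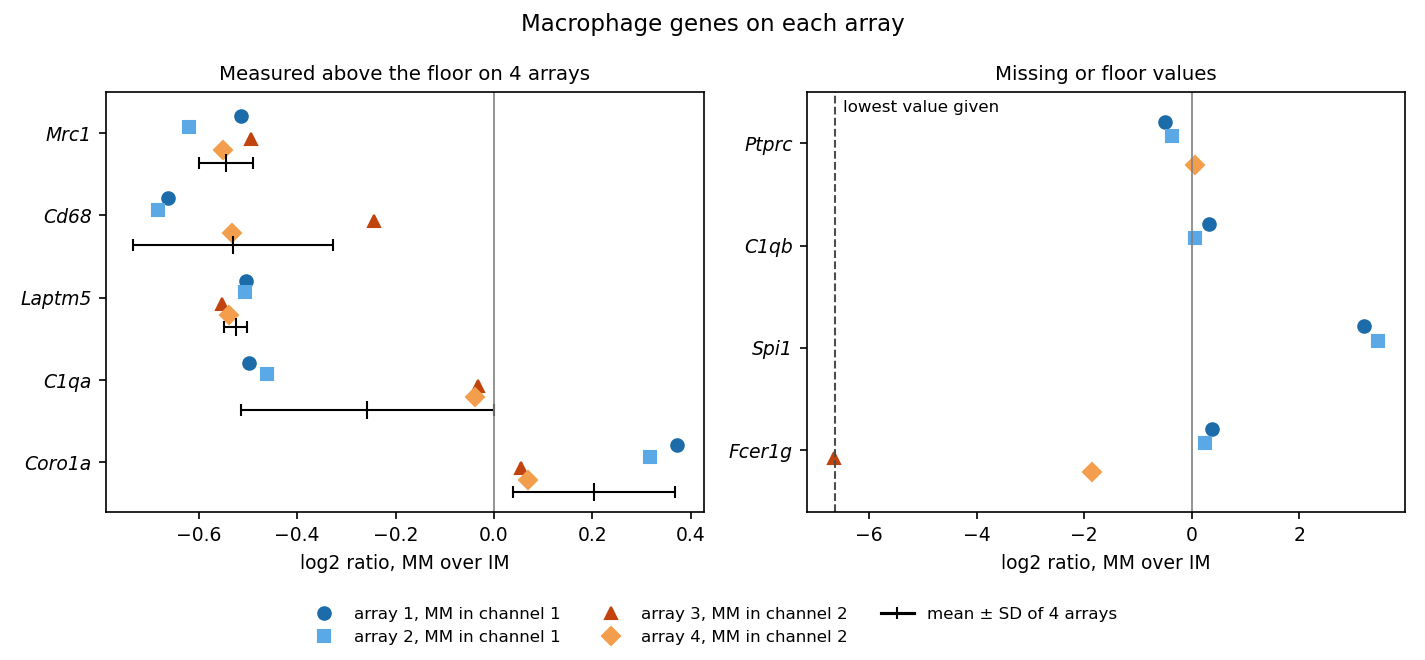
Log2 ratio of MM over IM (x axis) for each macrophage gene (rows) on each of 4 arrays, with blue points for MM in channel 1 and orange points for MM in channel 2; bars give mean ± SD for the 5 genes measured above the floor on 4 arrays (left), and the dashed line marks the floor of -6.64 (right). Mrc1 and Laptm5 lie near -0.5 on each array, Cd68 runs from -0.68 to -0.24, C1qa and Coro1a separate by orientation, and Fcer1g has its array 3 value on the floor.

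Mrc1 encodes the mannose receptor CD206, an endocytic receptor that takes up glycoproteins and is prominent on tissue-resident macrophages. Its log2 ratios were -0.51, -0.62, -0.49 and -0.55 on arrays 1 to 4. All were below 0, and the orientations overlapped. The mean was -0.54 ± 0.05 (SD, n = 4 arrays), a 1.46-fold lower signal in MM (limma SE 0.03, adjusted p = 0.002, and 0.00492 without the orientation term). Of all probes above the floor, 6.61% had a lower mean. Leaving out each array in turn kept the call (adjusted p = 0.0182 to 0.026).

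Laptm5, a lysosomal membrane protein of blood cells that lowers antigen receptor levels in lymphocytes, had -0.50, -0.51, -0.55 and -0.54. The 4 values were nearly equal, with the orientations apart by a small margin, and only 1.38% of probes above the floor had a smaller SD. The mean was -0.53 ± 0.02 (SD, n = 4), 1.44-fold lower in MM (SE 0.03, limma adjusted p = 0.00126, and 0.00424 without the term). The call stood without any 1 array (adjusted p = 0.012 to 0.0221).

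The glycoprotein CD68, a macrophage relative of the lysosomal LAMP proteins, is widely used to stain macrophages. Cd68 read -0.66, -0.68, -0.24 and -0.53 on arrays 1 to 4. Array 3 was the weakest, and the orientations did not overlap. The mean was -0.53 ± 0.20 (SD, n = 4), 1.44-fold lower in MM (SE 0.06, limma adjusted p = 0.00691, and 0.0268 without the term). The call was lost without array 1 (adjusted p = 0.0814) or array 2 (adjusted p = 0.0822) at nearly unchanged means of -0.54 and -0.53.

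The 3 genes thus had means within their own array-to-array spread of each other. They were set apart after their values were seen, as the members called lower in both fits. Their closeness is not independent of that choice, and the other members did not share it. On array 4 they spanned only 0.02 on the log2 scale, from -0.55 to -0.53, and on array 3 they spanned 0.31, from -0.55 to -0.24. Their SDs were unlike, with that of Cd68 near the median SD of all probes above the floor, 0.20, and those of Mrc1 and Laptm5 well under it. On arrays 1 and 2 alone limma called 0 of 21461 probes, with 9294 at an unadjusted p under 0.05, with Mrc1, Laptm5 and Cd68 among the uncalled. On arrays 3 and 4 alone Mrc1 (-0.52, adjusted p = 0.0207) and Laptm5 (-0.54, adjusted p = 0.0135) were called, and Cd68 was not (-0.39, adjusted p = 0.13).

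C1q, the recognition molecule of the classical complement pathway, is built from A, B and C chains, which tissue macrophages produce. C1qa read -0.50, -0.46, -0.03 and -0.04 on arrays 1 to 4. All 4 were below 0, and the pairs were far apart. The mean was -0.26 ± 0.26 (SD, n = 4), 1.20-fold lower in MM (SE 0.03, limma adjusted p = 0.00497). Without the orientation term it was not called (adjusted p = 0.202), nor on arrays 3 and 4 alone (-0.04, adjusted p = 0.168). C1qb had 2 values, 0.32 on array 1 and 0.06 on array 2, and so had C1qc, the gene of the C chain, at 0.65 and 0.18. On arrays 1 and 2, where all 3 chains were measured, C1qa was therefore below 0 and C1qb and C1qc above it. The mean of C1qb there was 0.19 (SE 0.11, limma adjusted p = 0.284).

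Coro1a, coronin 1A, an actin regulator of leukocytes, was the only member called higher in MM. Its values were 0.37, 0.32, 0.05 and 0.07 on arrays 1 to 4. They were all above 0, with the orientations apart. The mean was 0.20 ± 0.16 (SD, n = 4), 1.15-fold higher (SE 0.03, limma adjusted p = 0.00949). The call was lost without the orientation term, as given above, when array 3 (0.21, adjusted p = 0.0615) or array 4 was left out (0.20, adjusted p = 0.0644).

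**Figure D2:**
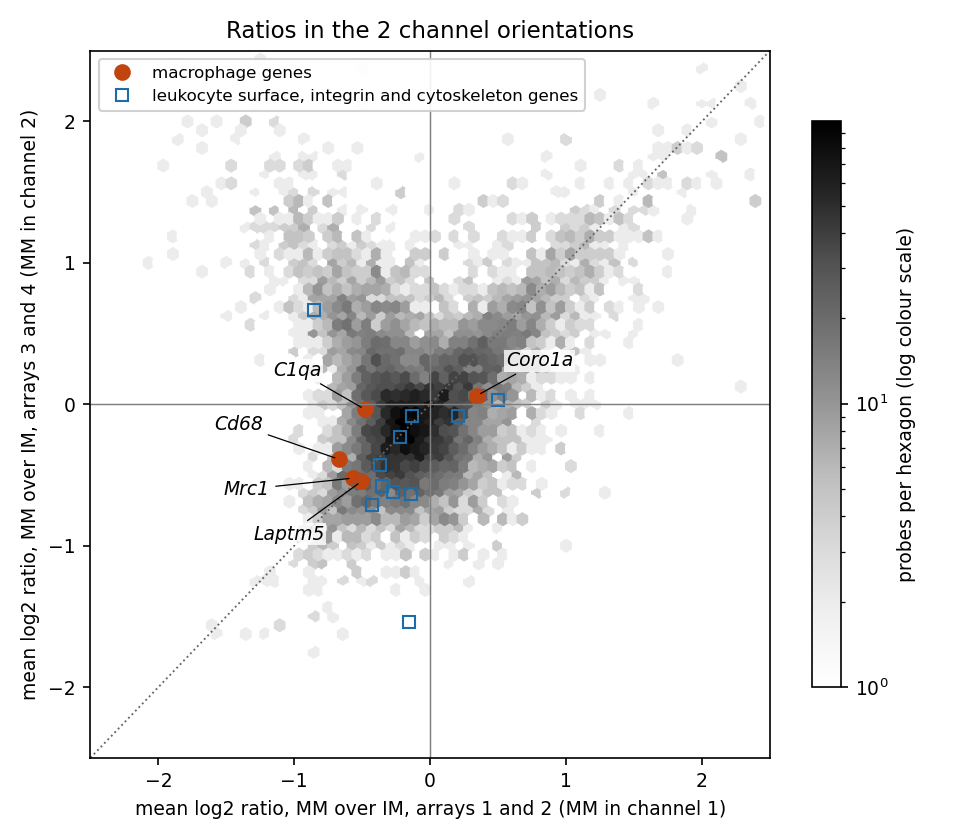
Mean log2 ratio of MM over IM on arrays 1 and 2 (x axis) against arrays 3 and 4 (y axis); grey hexagons count probes above the floor on a log colour scale, filled circles are the 5 macrophage genes and open squares the leukocyte surface, integrin and cytoskeleton genes, and probes beyond the axes are not drawn. Mrc1 and Laptm5 lie next to the dotted line of equal ratios at about -0.5, Cd68 close to them, and C1qa and Coro1a lie near 0 on the y axis.

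Spi1, the gene of PU.1, read 3.21 on array 1 and 3.45 on array 2, and arrays 3 and 4 lacked a value. Its mean there was 3.33 (SE 0.10), the largest ratio among the members, and limma on arrays 1 and 2 alone gave an adjusted p of 0.061. Ratios of this size went with missing values. Of 4250 probes with values on arrays 1 and 2 and none on arrays 3 and 4, 9.58% exceeded 3 on both arrays, against 0.212% of the 13191 probes measured above the floor on all 4. Spi1 stood above 89.8% of those 4250. The ratio of Spi1 thus rests on 1 orientation, in a class of probes where such ratios were more frequent.

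Fcer1g encodes the common gamma chain, which carries the activating motif for Fc receptors on macrophages and mast cells. The values were 0.38 on array 1, 0.24 on array 2, the floor on array 3 and -1.86 on array 4. The 2 orientations gave opposite signs. The mean of -1.97 (SE 0.93) includes the floor value and was not called (limma adjusted p = 0.156). Without array 3 it was -0.78 (adjusted p = 0.0215) and without array 4, with the floor value kept, -3.17 (adjusted p = 0.0146), so either array decided the call, while arrays 1 and 2 alone gave 0.31 (adjusted p = 0.121).

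Ptprc encodes CD45, the tyrosine phosphatase found on nucleated blood cells. It had -0.49 on array 1, -0.36 on array 2, no value on array 3 and 0.06 on array 4. The first 2 resembled Laptm5 and the last lay near 0. With probes of 3 values admitted, limma gave -0.19 (SE 0.06, adjusted p = 0.114), which weights array 4 as much as arrays 1 and 2 together.

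The pattern of the 5 members with complete values was compared with other probes by the root mean square difference over the 4 arrays from the members' median profile, which was -0.50, -0.51, -0.24 and -0.53. Cd68 lay 0.12 from that profile, Mrc1 0.14, Laptm5 0.15, C1qa 0.27 and Coro1a 0.69. Of 13186 other probes, 143 were closer than Cd68 and 8497 were closer than Coro1a. The profile is the median of these same 5 genes, so the distances of the genes that set it are not independent of it. The nearest were Psd2 (0.03), Ddah1 (0.05), Masp2 (0.05), S100a6 (0.06) and Nfib (0.06).

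Further lists held macrophage, leukocyte, complement and lysosomal genes and relatives of the members, some of them broadly expressed. Over these lists 47.2% of 72 tested probes were called lower in MM and 15.3% higher, beside 38.1% and 23.8% of all probes. The relatives gave 4 of the 11 higher calls, and 3 of the 6 in both fits. A value at the floor nearly fixes a lower call, since 86.1% of all tested probes with one were called lower, against 34.5% of those without, and 13 of the 72 had one. In both fits 13.9% of the 72 were lower and 8.33% higher, beside 14.4% and 13.6% of all probes. Neither ligand of the CSF1 receptor had a value on all 4 arrays, so neither was in the main fit. Il34 read -0.16 on array 1, -0.04 on array 2 and -0.24 on array 4, and Csf1 read 0.97 on array 1 and -0.16 on array 2. Of 11 tested probes of surface and scavenger receptors, 4 were called lower, 2 of them with floor values, and 1 higher, with a median above the floor of 0.09. Their 36.4% called lower is near the 38.1% of all probes, so the count is no result about these receptors. Axl, a receptor for apoptotic cells that mesenchyme and endothelium also express, was 2.10-fold lower in MM (-1.07 ± 0.18, adjusted p = 0.000506). Colec12, a scavenger receptor also made by endothelium and stroma, was 2.27-fold higher (1.18 ± 0.41, adjusted p = 0.00126). Both were called in both fits. Cd93, of vessels and phagocytes, was lower (-0.41 ± 0.22, adjusted p = 0.0219), but its call was lost when any 1 array was left out (adjusted p = 0.0645 to 0.103).

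Genes used to name macrophages gave few usable values. Adgre1, the gene of F4/80, had 0.17 on array 2, 2.05 on array 3 and 1.93 on array 4. Cx3cr1, the fractalkine receptor, had -0.49 on array 1, 0.33 on array 2 and the floor on array 4. Trem2, a lipid-sensing receptor, had 3 probes. For 2 of them arrays 1 and 2 gave 0.90 to 4.03 and the rest the floor, with 1 called lower on its floor values (adjusted p = 0.0171, lost without array 3 at 0.0864 or array 4 at 0.0871), and the third read 1.14 and 1.04 with no further values. Tyrobp, the adaptor that TREM2 signals through, had 0.90 and 0.28 and then the floor on array 3. Aif1, the gene of IBA1, was measured throughout at -0.18, -0.09, -0.04 and -0.13, and was not called (-0.11 ± 0.06, SD, n = 4, adjusted p = 0.0724).

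Of 13 tested probes of myeloid transcription factors, 2 were called lower (15.4%), 3 higher (23.1%) and 8 were not called, with a median of 0.04. Of all probes 38.1% were called lower and 23.8% higher. Lmo2, a partner of blood and endothelial factors, was higher (0.78 ± 0.36, adjusted p = 0.000859, called in both fits). Irf5, which drives inflammatory macrophage genes, was lower (-1.15 ± 0.71, adjusted p = 0.000796), but not without the orientation term (adjusted p = 0.0674). Fli1, of blood and endothelium, was called higher by 1 of its probes (0.33 ± 0.22, adjusted p = 0.0302), and the call was lost without array 1 (0.31, adjusted p = 0.189), array 2 (0.35, adjusted p = 0.163) or array 4 (0.25, adjusted p = 0.0539). Its other probe had a mean below 0 and was not called (-0.16 ± 0.43, limma adjusted p = 0.211). With the probes of Fli1 averaged, limma gave 0.09 (adjusted p = 0.351). Among Fc receptors, adaptors and their kinases 4 of 5 tested probes were called lower (80.0%, beside 38.1% of all probes and 34.5% of those above the floor). Limma called 0 of the 5 without the orientation term, where 2 had an unadjusted p under 0.05. Ptpn6, the phosphatase SHP-1, was called by 1 of 2 probes (-0.42 ± 0.25, adjusted p = 0.0367), and not once any 1 array was left out (adjusted p = 0.0611 to 0.148). The kinase gene Fgr was one (-0.36 ± 0.21, adjusted p = 0.00918), and its call was lost without array 1 (-0.35, adjusted p = 0.0894) or array 2 (-0.36, adjusted p = 0.0842).

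Leukocyte surface, integrin and cytoskeleton genes had 16 tested probes, of which 12 were called lower (75.0%, beside 38.1% of all probes) and 1 higher. Of the 12, 5 stood at the floor on arrays 3 and 4. Of these, the integrin genes Itgal (3.34 and 2.53) and Itgax (3.00 and 0.17) and the adaptor gene Lcp2 (3.42 and 1.69) were above 0 on arrays 1 and 2. The remaining floor probes were each above 0 on 1 of arrays 1 and 2 and below 0 on the other. Over all 918 probes at the floor on arrays 3 and 4 and above it on arrays 1 and 2, the median on arrays 1 and 2 was 1.14. Of the 11 probes above the floor, 7 were called lower, beside 34.5% of all such probes. Below 0 on all 4 arrays were 8 of the 11, beside 30.0% of all such probes. A further 5 genes with values on arrays 1 and 2 alone were above 0 on both, in order of their means from Hcls1 (0.08 and 0.18) to the integrin gene Itgam (1.52 and 1.56). These 5 genes and the 3 with floor values were named after their values were seen. Over all 4250 probes with values on arrays 1 and 2 and none on arrays 3 and 4, the median there was 0.16. A mean above 0 was thus the more frequent case for such probes, so the count of 5 is no result about these genes. Itgax and Lcp2 lost their calls without array 3 (adjusted p = 0.12 and 0.08) or array 4 (adjusted p = 0.121 and 0.0805). In both fits 5 were lower, 31.2% of those tested, beside the 14.4% of all probes. The median of the 11 probes above the floor was -0.39. The 5 lower in both fits, likewise named after their values were seen apart from Arhgdib, were Arhgdib, abundant in blood cells (-0.57 ± 0.17), Cd48, a leukocyte adhesion protein (-0.46 ± 0.13), the thymosin gene Tmsb4x (-0.45 ± 0.20), Dock2, a Rac activator of leukocytes (-0.40 ± 0.04), and the actin-binding Cotl1 (-0.22 ± 0.01). Cotl1 lost its call without array 3 (-0.22, adjusted p = 0.052). Tmsb4x is made by most cell types. Cd52, a leukocyte surface peptide, was lower (-0.84 ± 0.81, adjusted p = 0.00314), with -0.02 and -0.29 on the arrays with MM as channel 1 against -1.63 and -1.45 on the others, and was not called without the orientation term (adjusted p = 0.171). Rac2, a leukocyte GTPase, went the other way (0.27 ± 0.28, adjusted p = 0.0199), and lost its call without array 3 (0.25, adjusted p = 0.101) or array 4 (0.28, adjusted p = 0.0881).

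Relatives of the members moved in both directions. Laptm4b, a broadly expressed relative of Laptm5, read 1.06, 1.09, 1.33 and 1.26 on arrays 1 to 4, 2.28-fold higher in MM (1.19 ± 0.13, adjusted p = 0.000481). Laptm4a, named after its values were seen, was at 0.47 ± 0.04 (adjusted p = 0.00207). Both were above 0 on the arrays where Laptm5 was below it. Among coronins, Coro1b, also named after its values were seen, was higher (0.65 ± 0.25, adjusted p = 0.0119), with the call lost when array 3 (0.66, adjusted p = 0.0692) or array 4 was left out (0.65, adjusted p = 0.0706). Coro1c was higher as well (1.30 ± 1.18, adjusted p = 0.0258), with the call lost without array 3 (1.25, adjusted p = 0.117) or array 4 (1.36, adjusted p = 0.104), and Coro7 was lower (-0.46 ± 0.15, adjusted p = 0.00375). The mannose receptor relatives, named after their values were seen, were Pla2r1 (-0.17 ± 0.54, adjusted p = 0.0243, 0.668 without the orientation term, and 0.069 to 0.113 without any 1 array), Ly75 (-0.03 ± 0.11, not called, adjusted p = 0.503) and Mrc2, which read 4.02 and 4.88 on arrays 1 and 2 and nothing more. Of the 7 tested probes of this list, 3 were higher and 1 lower in both fits, beside 13.6% and 14.4% of all probes. No test compared these relatives with the members.

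Of 8 tested complement probes 5 were called lower (62.5%, beside 38.1% of all probes), 3 of them with floor values, and the other 3 were not called. Above the floor 2 of 5 were called lower, beside 34.5% of all such probes. In both fits 2 were lower (25.0%, beside 14.4% of all probes). These were Masp2, a protease of the lectin pathway (-0.50 ± 0.13, adjusted p = 0.00744), and 1 of 3 probes of Cd55, an inhibitor of complement on cell surfaces (-0.29 ± 0.03, adjusted p = 0.00395). Masp2 lost its call without array 1 (-0.49, adjusted p = 0.086) or array 2 (-0.50, adjusted p = 0.0831). Of 12 tested lysosomal and phagocyte probes 5 were lower, 2 higher and 5 not called, with a median above the floor of -0.03. The 41.7% lower and 16.7% higher lie close to the 38.1% and 23.8% of all probes, so these counts are no result about lysosomal genes. Lyz1, a lysozyme (-0.43 ± 0.19, adjusted p = 0.0125), was lower, with the call lost without array 1 (-0.36, adjusted p = 0.0647), array 3 (-0.47, adjusted p = 0.0545) or array 4 (-0.39, adjusted p = 0.0697). Lyz2, another lysozyme gene of the list, was named after its values were seen and was not tested. Its 2 probes had values on arrays 1 and 2 alone, all above 0 (0.86 and 0.63, and 0.66 and 0.83). The cathepsin gene Ctsb was at -0.42 ± 0.30 (adjusted p = 0.0108), with the call lost without array 1 (adjusted p = 0.093) or array 2 (adjusted p = 0.0738), and the cathepsin gene Ctsl at 0.21 ± 0.08 (adjusted p = 0.0183), with the call lost without array 3 (adjusted p = 0.0903) or array 4 (adjusted p = 0.0951). Lamp2, a membrane protein of lysosomes in all cells, was higher (0.84 ± 0.24, adjusted p = 0.00386).

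**Figure D3:**
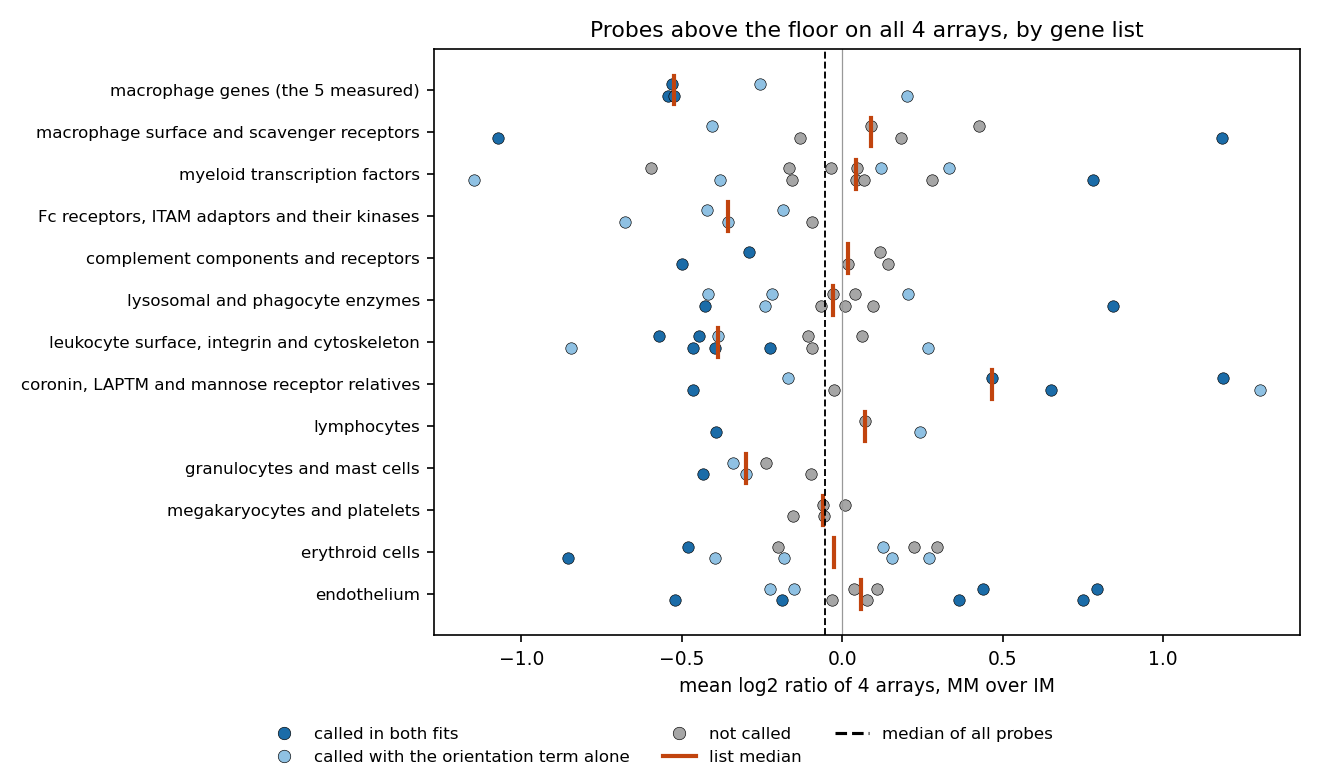
Mean log2 ratio of MM over IM (x axis, 4 arrays) of each probe above the floor on all 4 arrays, by gene list (rows); dark blue marks a call in both fits, light blue a call with the orientation term alone and grey no call, with a red bar at each list's median and a dashed line at the median of all probes. The median of the 5 macrophage genes is the lowest of the rows at -0.53, followed by leukocyte surface, integrin and cytoskeleton genes at -0.39.

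Markers of other blood and vessel cells were called about as often as any probes: of 36 tested, 38.9% were lower and 22.2% higher, beside 38.1% and 23.8% of all, and 16.7% lower and 11.1% higher in both fits, beside 14.4% and 13.6%. Hbb-bh1, an embryonic globin, was 1.81-fold lower in MM (-0.85 ± 0.13, adjusted p = 0.00164), and Epor, the erythropoietin receptor, was at -0.48 ± 0.07 (adjusted p = 0.00278), but of 10 tested erythroid probes 4 were lower, 3 higher and 3 not called. The 3 higher, named after their values were seen, were the globin genes Hbb-y (0.15 ± 0.62, adjusted p = 0.0153), Hba-a1 (0.27 ± 0.76, adjusted p = 0.00725) and 1 of 2 probes of Hba-x (0.13 ± 0.50, adjusted p = 0.0274), each below 0 on arrays 1 and 2 and above 0 on arrays 3 and 4. Leaving out 1 array ended the call of Hbb-y (without array 3 or 4, adjusted p = 0.0761 and 0.0889), of Hba-a1 (without array 1 or 2, adjusted p = 0.0555 and 0.0577) and of Hba-x (without any 1 array, adjusted p = 0.0681 to 0.129). Cpa3, a mast cell protease, was at -0.43 ± 0.10 (limma adjusted p = 0.00173). Of 7 tested granulocyte and mast cell probes 5 were lower (71.4%, beside 38.1% of all probes), 2 of them with floor values. Above the floor 3 of 5 were lower, beside 34.5% of all such probes. In both fits 1 was lower (14.3%, beside 14.4% of all probes). Another mast cell protease, Mcpt4, was at -0.30 ± 0.18 (adjusted p = 0.0111), with the call lost without array 1 (adjusted p = 0.092) or array 2 (adjusted p = 0.08). Of 3 tested lymphocyte probes 1 was lower, Rag1 of antigen receptor recombination (-0.39 ± 0.15, adjusted p = 0.0027), and 1 was higher. Among 4 megakaryocyte and platelet probes limma called 0, with 0 at an unadjusted p under 0.05 in either fit. Endothelial probes were lower for 4 of 12 and higher for 4, with Tek, the angiopoietin receptor, at -0.52 ± 0.07 (adjusted p = 0.00171) and Cd34, of vessels and blood progenitors, at 0.79 ± 0.07 (adjusted p = 0.0014). The endothelial factor Sox17 was at 0.75 ± 0.07 (adjusted p = 0.00118), and the VEGF receptor gene Kdr at -0.23 ± 0.16 (adjusted p = 0.00939), with its call lost without array 1 (adjusted p = 0.0533) or array 4 (adjusted p = 0.059). Ratios alone give no summed marker level per tissue, and the part of these cells in the ratios of Mrc1, Laptm5 and Cd68 was not tested.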

How the data were processed

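Per the labels' protocols, spots were quantified by the authors with Imagene 5.5 and the channels of arrays 3 and 4 were reversed. A lowess curve on 20.0% of the data at each point was applied to the control channel, whose values under 10 were set to 10. The deposited values are log2 ratios, a base read from the values, which fall on thousandths when raised from base 2. The sources used here do not describe background correction, flags or filters. No column was left unused. The precision is limited by 4 arrays, and intensities were not given.

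Probes were named through the platform annotation and a RefSeq gene table of GRCm38.p6. Of 22702 probes, 17252 had 1 symbol, 156 several and 5294 none, and 17247 of the first kind matched. The 14184 probes with 4 values were fitted in limma 3.58.1 (R 4.3.3) with an intercept and an orientation term, checked on simulated data, and moderated p-values were adjusted by Benjamini-Hochberg. Whether arrays share an RNA extract is not said in the labels, and the p-values rest on the scatter among these 4 arrays, possibly technical. Errors are SDs over 4 arrays.

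The members and lists were chosen with earlier results of these data known. Named beside the members were 8 fixed genes and, from each list, up to the 2 highest and 2 lowest called probes above the floor with 1 sign on 4 arrays. Alternatives changed the orientation term, floor handling, centring, scaling, array weights, the number of values needed, the arrays used and averaging over probes or orientations.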

Additional observations from a re-analysis of the deposited data

Results flagged for a closer look

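Of 52 results with 4 values each, 2 had 1 array far from the other 3 by Dixon's criterion, where chance gives about 1 in 20. Masp2 read -0.30 on array 3, against -0.58 to -0.55 on the others. Coro1b read 1.03 on array 1, against 0.51 to 0.54 on the others. None of the 6 tested members was among them. The rate of 1 in 20 takes the 4 arrays as interchangeable, but the ratios depended on orientation. A probe split by orientation, such as C1qa or Coro1a, could hardly be flagged.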

How the results depend on the processing

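Of 89 repeats of the tested members' ratios under the alternatives, 66 kept direction and side of the threshold, 19 kept direction but lost the call, 3 gained it and 1 turned. The 1 that turned was Fcer1g on arrays 1 and 2 alone (0.31). Of 680 repeats for the other genes named, 499 kept both, 164 lost the call, 5 gained it and 12 turned. On arrays 1 and 2 alone, where no floor value of theirs is used, probes of Trem2 (3.29 and 2.44), Itgal (2.93), Itgax (1.59) and Lcp2 (2.55) turned, as did Ly75 (0.0578), Hbb-y (-0.38), Hba-a1 (-0.39) and Hba-x (-0.30), for which the cause was not tested. Pla2r1 turned on arrays 3 and 4 alone (0.29), and Ly75, not called, turned with the arrays centred (0.0336) and with them centred and scaled (0.0435). Without the orientation term 3968 probes and 3 members were called, against 8779 and 5 with it. Leaving out 1 array gave 5808 to 6782 probes and 4 to 5 members. On arrays 1 and 2 alone limma called 0 probes and 0 members (smallest adjusted p = 0.061, with 9294 probes and 7 members at an unadjusted p under 0.05). On arrays 3 and 4 alone it called 7732 probes and 2 members. With each orientation averaged to 1 value it called 0 probes and 0 members (1526 and 1 at an unadjusted p under 0.05). Mrc1 and Laptm5 each kept their call in 13 of 15 alternatives, the exceptions being arrays 1 and 2 alone and the averaged orientations. Cd68 kept it in 10, C1qa in 11 and Coro1a in 9. Each of these 5 genes had 1 probe with 4 values above the floor. Floor handling, the number of values needed and averaging over probes therefore left their ratios unchanged. Those repeats could hardly change a call, so the counts of repeats are not counts of independent checks. Each ratio pairs the tissues within 1 array, so the fit is a paired one and no further block was tried. Signal over background is not known here.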
